A study of Homo sapiens with 6 samples.

Results

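Extracellular matrix genes were followed in MDA-MB-231 cells, an established human line from a triple-negative breast carcinoma, after 24 h with 5 μM NCD (nitidine chloride, a plant alkaloid) or with 0.1% DMSO as the vehicle. The 49 genes were taken by symbol from a list of collagens, laminins, matrix glycoproteins and the enzymes that crosslink or hydroxylate collagen, out of 63241 Ensembl genes in the count files. All 49 symbols matched 1 identifier each. RNA-seq was available for 3 DMSO and 3 NCD libraries of unmodified cells, with no other treatment in either group. The labels number the libraries of a group but do not say that they came from separate cultures, so p-values measure the spread between these libraries, which may be technical. In 2 NCD libraries, replicates 2 and 3, a free-text label numbers the line differently from the cell line field, which gives MDA-MB-231 for all 6.

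Collagens are trimers of chains that wind into a triple helix. Fibrillar types form ropes in the stroma, whereas collagen IV forms the sheet-like network of basement membranes, on which laminin trimers of 1 alpha, 1 beta and 1 gamma chain assemble. Prolyl hydroxylases (P4HA) stabilise the helix, lysyl hydroxylases (PLOD) prepare lysines for crosslinking, and lysyl oxidases (LOX) make the crosslinks outside the cell. In breast carcinoma, stiffened and remodelled matrix is associated with invasion, and carcinoma cells as well as fibroblasts deposit it.

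Counts per library ran from 18223594 to 19410833 in the DMSO group and from 18232169 to 21629653 in the NCD group. Expression is given as CPM, counts scaled to library size with TMM factors. A gene was called higher or lower at a Benjamini-Hochberg adjusted p below 0.05, taken over all 15295 genes tested, and an absolute log2 fold change above 1 in edgeR's quasi-likelihood test. "Rose" and "fell" are used here for genes that passed both. By that rule 31.0% of all genes were called, 13.5% higher and 17.5% lower with NCD. The cell line's mesenchymal markers were abundant, with 6364 to 6648 summed CPM over 6 genes in the DMSO group and 3804 to 4101 in the NCD group. Of the 6, 4 fell with NCD (66.7%, against 17.5% of all genes). VIM, the most abundant, had means of 3056 CPM with DMSO and 2638 with NCD, and was not called (log2 fold change -0.21). Of 8 luminal epithelial markers, ESR1, PGR and CDH1 had at most 7 counts in any library, whereas the keratins KRT8 and KRT18 were abundant (means of 411.9 and 399.6 CPM with DMSO, 596.0 and 483.0 with NCD). The luminal list summed to 767.1 to 887.2 CPM with DMSO and 975.6 to 1162 with NCD. Its 5 tested genes were higher in every NCD library than in any DMSO library, as were 37.2% of all genes. Only 1 passed both thresholds, FOXA1, with a log2 fold change of 3.25 from at most 7 counts with DMSO. GATA3 did not pass on adjusted p either (edgeR adjusted p = 0.073). The part of these lists in the results on matrix genes was not tested. Of 8 fibroblast markers, 6 had at most 3 counts in any library, of 5 endothelial markers 3 had at most 7, and of 5 leukocyte markers 3 had at most 1. The endothelial and leukocyte lists were not silent. KDR had means of 12.5 CPM with DMSO and 9.17 with NCD, and CD68 had 84.6 and 91.0. PECAM1 and CD14 had at most 22 counts in any library, and none of these was called.

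Most matrix genes that passed the test fell with NCD. Of the 49 genes, 40 passed the filter on low counts, and of these 21 fell, 2 rose and 17 were not called. The share that fell was 52.5%, against 17.5% of all genes, and the share that rose was 5.0%, against 13.5%. The median log2 fold change was -1.13 over the 40 genes and 0.04 over all genes tested. The falls included PLOD2, COL8A1, COL13A1, COL4A2 and TNC, from 14.2-fold for PLOD2 to 5.67-fold for TNC. The rises were COL1A1, 4.73-fold, and COL6A1, 2.36-fold. In 26 of the 40 genes all 3 NCD libraries lay below all 3 DMSO libraries (35.3% of all genes did so), and in 7 they lay above them (37.2% of all genes).

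**Figure D1:**
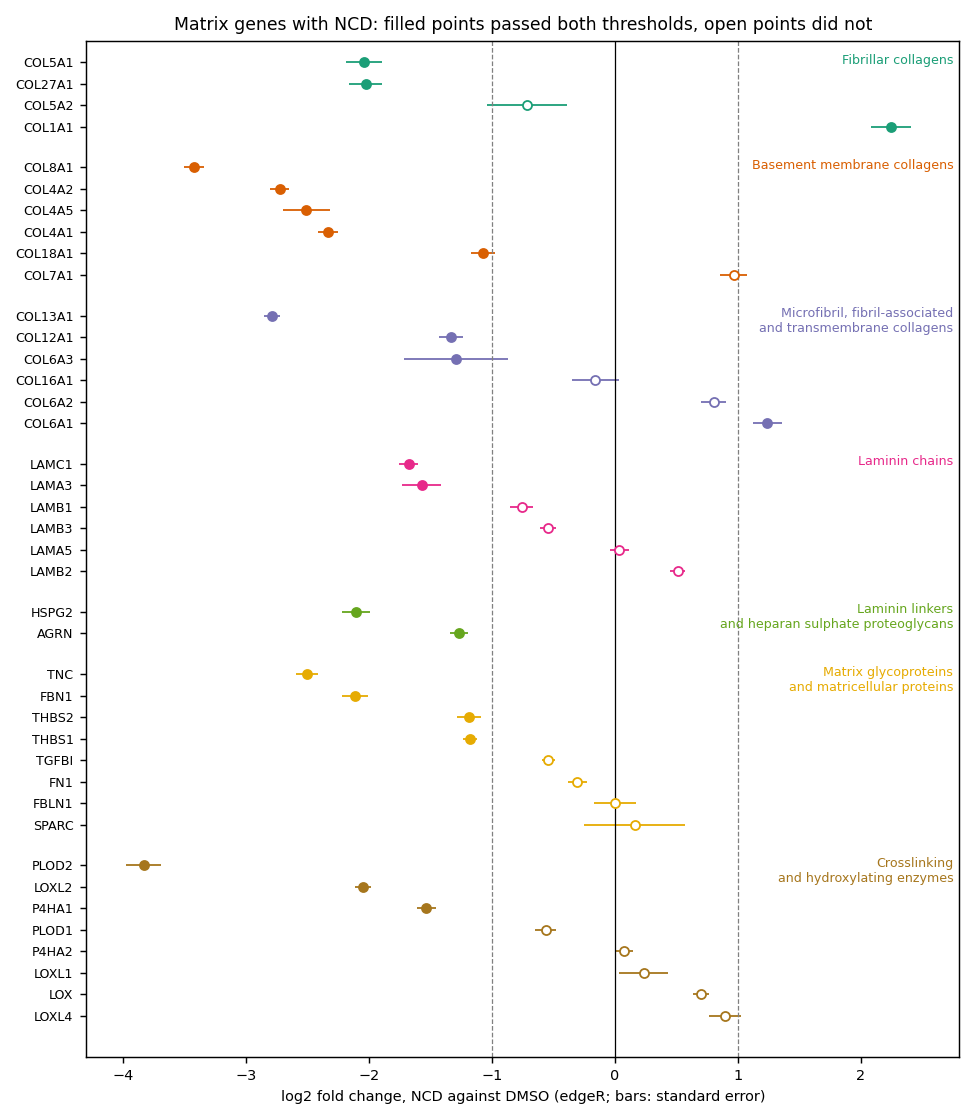
Log2 fold change of the 40 matrix genes tested, NCD against DMSO, on the horizontal axis, grouped and coloured by role. Bars are standard errors (3 libraries per group), dashed lines mark a log2 fold change of -1 and 1, and filled points passed both thresholds. PLOD2 at -3.83 lies farthest left and COL1A1 at 2.24 farthest right.

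Expressed as a sum, the 49 genes made up 0.352% ± 0.026 (SD, n = 3) of the counts with DMSO and 0.205% ± 0.0077 (SD, n = 3) with NCD. In CPM the DMSO libraries summed to 3775 ± 212 (SD, n = 3) and the NCD libraries to 1918 ± 40.2 (SD, n = 3), which is 50.8% of the DMSO level. Every role group had a lower sum with NCD. Basement membrane collagens kept the smallest part, 31.3% of their DMSO level, followed by the heparan sulphate proteoglycans with the laminin linkers (35.5%), and the laminin chains kept the largest, 69.0%. Much of what remained came from a few genes: LAMB3, TGFBI and LOX supplied 13.7%, 10.8% and 9.95% of the summed level with NCD, against 10.2%, 7.99% and 3.11% with DMSO. PLOD2 went from 9.14% of the sum to 1.26%. In bulk RNA, fewer cells that express a gene and less RNA per cell cannot be told apart.

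**Figure D2:**
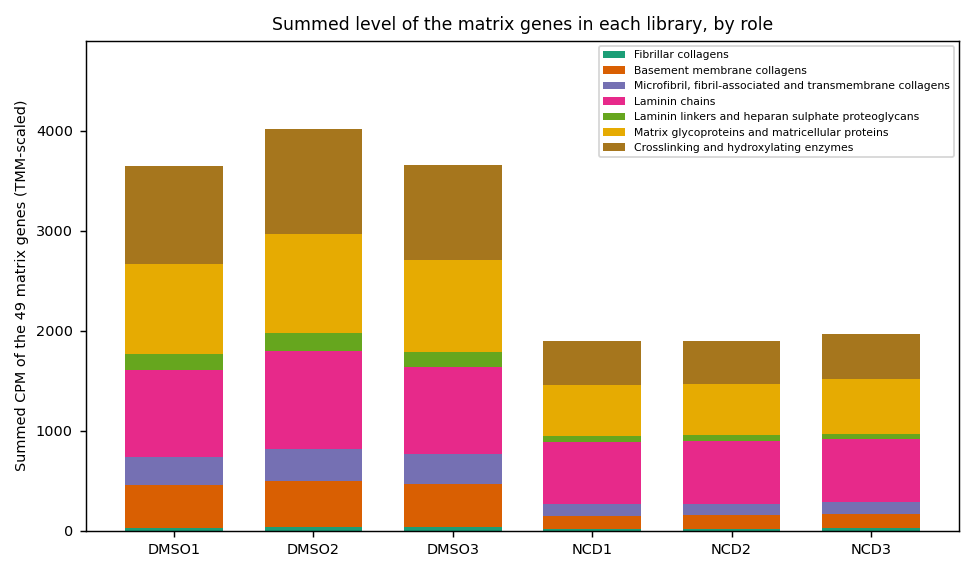
Summed CPM of the 49 matrix genes (vertical axis, TMM-scaled) in each of the 6 libraries, stacked by role group. The 3 NCD libraries are lower than the 3 DMSO libraries, with means of 1918 and 3775 CPM.

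Of the basement membrane collagens, 5 of the 6 tested fell (83.3%, against 17.5% of all genes) and 0 rose (13.5% of all genes). Their median log2 fold change was -2.42. Each that fell is over 100 kb long on the chromosome, introns included, and 67.0% of all genes of such length fell. Collagen IV was among the basement membrane collagens that fell. Its alpha 1 and alpha 2 chains, which assemble in a 2 to 1 ratio into the common network of basement membranes, are encoded head to head on chromosome 13 and start from a shared stretch of DNA. The 126 bases between their RefSeq start sites (GRCh38.p14, chr13:110307158-110307283, plus strand) are shown because both genes are transcribed away from it. Capitals mark a CCAAT box and a GC box (GGGCGG).
COL4A1-COL4A2: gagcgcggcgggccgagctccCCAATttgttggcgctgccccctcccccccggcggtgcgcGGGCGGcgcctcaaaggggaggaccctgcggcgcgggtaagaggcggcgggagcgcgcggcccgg
Searched on both strands, CCAAT occurs in the 126 bases before the start of 21.1% of 35116 RefSeq promoters and GGGCGG in that of 34.6%. TATAAA was not among these letters.

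COL4A1 (ENSG00000187498; chromosome 13, 110148963 to 110307233, minus strand) had 88.3, 99.8 and 86.0 CPM in the DMSO libraries and 18.1, 17.3 and 18.8 CPM in the NCD libraries. COL4A2 (chromosome 13, 110305812 to 110513209, plus strand) had 188.4, 192.8 and 193.9 CPM with DMSO and 28.0, 26.9 and 31.8 CPM with NCD. For both genes every NCD library was far below every DMSO library. COL4A1 fell by 2.34 on the log2 scale (standard error 0.08, edgeR adjusted p = 4.53e-08) and COL4A2 by 2.73 (standard error 0.08, edgeR adjusted p = 1.74e-08). The 2 genes overlap at their 5′ ends on opposite strands in GENCODE release 29, and whether the counting used strand is not given in the sources used here. The count of COL4A1 relative to COL4A2 within a library, which does not depend on scaling, was 0.476 with DMSO and 0.627 with NCD (geometric means). Its log2 was -1.09, -0.95 and -1.17 with DMSO and -0.63, -0.64 and -0.76 with NCD. The ratio was thus higher in each NCD library than in any DMSO library (exact two-sided permutation test, p = 0.1, the smallest p that 3 against 3 allows).

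Of the X-linked collagen IV pair, 1 gene could be tested. COL4A5, a chain of specialised basement membranes such as that of the kidney, had 6.09, 6.39 and 5.32 CPM with DMSO and 1.18, 1.09 and 0.839 CPM with NCD. It fell by 2.51 on the log2 scale (standard error 0.19, edgeR adjusted p = 3.92e-06), with no overlap between the groups. Its neighbour COL4A6 had too few counts to test, with 0, 0 and 6 under DMSO and 0, 1 and 2 under NCD.

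COL8A1, a short-chain collagen of subendothelial matrix, fell most among collagens. It had 94.9, 93.4 and 91.2 CPM with DMSO and 8.17, 8.49 and 9.37 CPM with NCD, giving a log2 fold change of -3.42 (standard error 0.08, edgeR adjusted p = 1.16e-08). COL18A1, a basement membrane collagen whose C-terminal end is released as endostatin, fell by 1.08 on the log2 scale (standard error 0.10, edgeR adjusted p = 1.17e-05), from 23.3 ± 2.20 to 11.04 ± 0.224 CPM (SD, n = 3). COL7A1, the collagen of the anchoring fibrils that tie epithelial basement membrane to the stroma, was higher in every NCD library. It had 30.4, 41.0 and 36.5 CPM with DMSO and 64.2, 70.4 and 76.0 CPM with NCD, and its log2 fold change of 0.96 (standard error 0.11, edgeR adjusted p = 5.98e-05) lay just below the fold threshold, which it passed without DMSO replicate 2 (1.06) or NCD replicate 1 (1.00).

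Fibrillar collagen chains went in opposite directions, with 1 rise and 2 falls among 4 tested. COL1A1 (chromosome 17, 50183289 to 50201632, minus strand), the main chain of collagen I, was counted 45, 41 and 65 times in the DMSO libraries and 304, 246 and 317 times in the NCD libraries. In CPM these were 2.71, 2.32 and 3.56 with DMSO and 13.3, 12.7 and 14.8 with NCD, which do not overlap, at a log2 fold change of 2.24 (standard error 0.16, edgeR adjusted p = 2.56e-06). Its partner chain COL1A2 had 0 counts in all 6 libraries, where a count of 0 allows at most 0.131 to 0.181 CPM per library (counting error only). Collagen I is usually made of both chains, and a trimer of alpha 1 chains alone is also known. COL3A1, which accompanies collagen I in stroma, had at most 3 counts in any library.
The fibroblast marker list was also higher with NCD, at 4.33 to 5.43 summed CPM with DMSO and 13.2 to 14.6 with NCD. This sum came from PDGFRB, with a log2 fold change of 1.68, and ACTA2, with 1.57, the latter overlapping the expressed gene STAMBPL1 on the opposite strand. The other 6 genes of the list, DCN, LUM, PDGFRA, POSTN, FAP and THY1, had at most 3 counts in any library of either group. The part of this list in the rise of COL1A1 was not tested.

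COL5A1, a chain that nucleates collagen I fibrils, had 8.56, 9.79 and 9.54 CPM with DMSO and 2.49, 1.91 and 2.33 CPM with NCD. It fell by 2.04 on the log2 scale (standard error 0.15, edgeR adjusted p = 2.73e-06). COL27A1, a fibrillar collagen of cartilage, had 16.6, 21.7 and 18.4 CPM with DMSO and 4.24, 5.02 and 4.71 CPM with NCD. It fell by 2.03 (standard error 0.13, edgeR adjusted p = 1.51e-06), and for neither gene did the groups overlap. COL5A2, which pairs with COL5A1, had only 22 to 42 counts with DMSO and 18 to 29 with NCD, and its log2 fold change of -0.72 (standard error 0.33, edgeR adjusted p = 0.0779) was not called. Within libraries COL5A1 exceeded COL5A2 by 5.35 times in counts with DMSO and 2.07 times with NCD, and the log2 ratios of the groups did not overlap (exact permutation p = 0.1).

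Of the remaining collagens, 3 of 6 fell and 1 rose. COL13A1, a transmembrane collagen of cell junctions, had 161.6, 167.9 and 164.0 CPM with DMSO and 23.7, 22.4 and 25.2 CPM with NCD, without overlap. The log2 fold change was -2.79 (standard error 0.07, edgeR adjusted p = 1.19e-08). Per kb of exon it was the most abundant collagen of the list with DMSO, at 27.9 ± 0.545 CPM per kb (SD, n = 3), and had 4.03 ± 0.240 with NCD. COL12A1, which coats fibrils, had 98.2, 125.6 and 103.3 CPM with DMSO and 43.3, 41.9 and 44.8 CPM with NCD, and fell by 1.33 on the log2 scale (standard error 0.10, edgeR adjusted p = 2.57e-06). COL16A1, another fibril-associated collagen, had a log2 fold change of -0.16 (standard error 0.19, edgeR adjusted p = 0.472), and its groups overlapped.
Collagen VI, the beaded microfibril around cells, needs all of its 3 classical chains, and these did not move together. COL6A1 (chromosome 21, 45981737 to 46005050) had 10.97, 14.4 and 14.4 CPM with DMSO and 32.3, 29.02 and 32.6 CPM with NCD, and rose by 1.24 on the log2 scale (standard error 0.12, edgeR adjusted p = 1.48e-05). Its neighbour COL6A2 (chromosome 21, 46098097 to 46132849) had a log2 fold change of 0.80 (standard error 0.10, edgeR adjusted p = 0.00011), below the fold threshold, with all NCD libraries above all DMSO libraries. COL6A3 was counted 9, 20 and 18 times with DMSO and 12, 5 and 6 times with NCD, and fell by 1.30 (standard error 0.42, edgeR adjusted p = 0.0223). That call rests on few counts: it was lost with DESeq2, with the replicate number as a block (adjusted p = 0.0544) and in 4 of the 6 fits that left out 1 library (DMSO replicate 2 or 3, NCD replicate 2 or 3). Per kb of exon, COL6A3 stood at 0.0452 CPM per kb with DMSO, against 2.48 for COL6A1 and 1.496 for COL6A2.

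**Figure D3:**
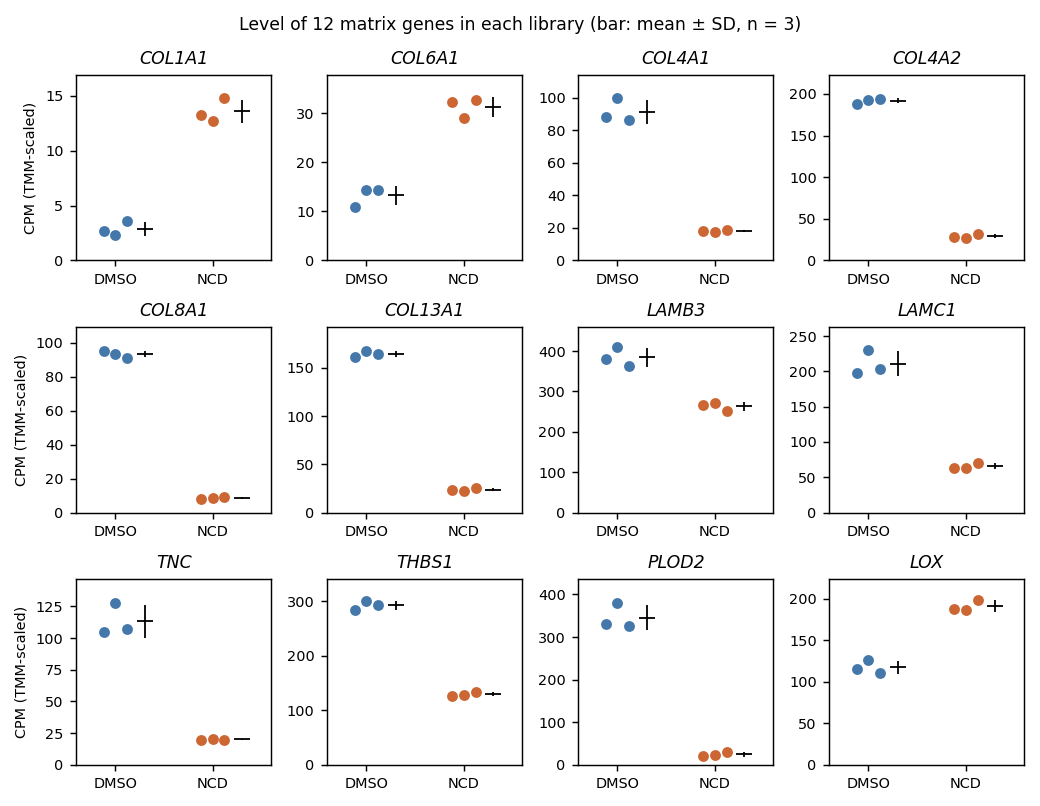
TMM-scaled CPM (vertical axes, each from 0) of 12 matrix genes in the 3 DMSO and 3 NCD libraries, 1 point per library, with the mean and SD beside the points. COL1A1, COL6A1 and LOX are higher in every NCD library, and the other 9 genes are lower.

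Laminin chains kept most of their summed level: 2 of 6 tested fell (33.3%, against 17.5% of all genes) and 0 rose (13.5% of all genes). LAMB3, the beta chain of laminin-332, which anchors epithelial cells, was the most abundant of the 49 genes per kb of exon in both groups, at 82.1 ± 5.05 CPM per kb (SD, n = 3) with DMSO and 56.1 ± 2.42 with NCD. It had 380.0, 410.5 and 363.9 CPM with DMSO and 266.6, 272.3 and 250.4 CPM with NCD, giving a log2 fold change of -0.55 (standard error 0.07, edgeR adjusted p = 6.91e-05) that lay below the fold threshold although the groups did not overlap. LAMA3, the alpha chain of the same trimer, had 13.3, 17.5 and 15.5 CPM with DMSO and 5.24, 4.19 and 6.11 CPM with NCD, and fell by 1.57 (standard error 0.16, edgeR adjusted p = 2.44e-05).

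LAMC1, the gamma chain of the laminins of most basement membranes, had 197.9, 230.8 and 202.7 CPM with DMSO and 63.4, 63.7 and 70.3 CPM with NCD, and fell by 1.68 (standard error 0.08, edgeR adjusted p = 1.89e-07). The chains that assemble with it had log2 fold changes nearer to 0. LAMB1 had a log2 fold change of -0.76 (standard error 0.09, edgeR adjusted p = 7.32e-05) and LAMB2 one of 0.51 (standard error 0.06, edgeR adjusted p = 6.24e-05), both within the fold threshold and without overlap between the groups. LAMA5 had 50.1, 58.0 and 51.2 CPM with DMSO and 52.7, 54.5 and 56.2 CPM with NCD, and its log2 fold change was 0.04 (standard error 0.08, edgeR adjusted p = 0.689). LAMA4 had 4 to 7 counts in every library. LAMA5 and LAMB1 overlap the abundant genes ADRM1 and DLD on the opposite strand. The ratio of LAMB1 to LAMB3 overlapped between the groups (exact permutation p = 0.2).

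Both tested heparan sulphate proteoglycans fell, as did 17.5% of all genes. HSPG2, which encodes perlecan and links laminin with collagen IV, had 49.8, 64.2 and 52.7 CPM with DMSO and 11.97, 13.6 and 13.2 CPM with NCD, giving a log2 fold change of -2.10 (standard error 0.11, edgeR adjusted p = 4.27e-07). AGRN, which encodes agrin and binds laminin, had 107.5, 114.6 and 101.5 CPM with DMSO and 44.4, 47.1 and 42.8 CPM with NCD, giving a log2 fold change of -1.27 (standard error 0.07, edgeR adjusted p = 5.54e-07). The nidogens, which bridge laminin and collagen IV, were barely detected: NID1 had 0 to 2 counts per library, and NID2, which overlaps the expressed gene RTRAF, had 0 to 3 counts with DMSO and 5 to 11 with NCD.

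Of the matrix glycoproteins, 4 of 8 tested fell and 0 rose. TNC, which encodes tenascin-C, a protein of tumour and wound stroma, had 104.6, 127.9 and 106.9 CPM with DMSO and 19.9, 20.1 and 19.9 CPM with NCD. It fell by 2.50 on the log2 scale (standard error 0.09, edgeR adjusted p = 5.09e-08). FBN1, the fibrillin of elastic microfibrils, had 27.3, 31.3 and 27.2 CPM with DMSO and 6.64, 6.16 and 6.99 CPM with NCD, and fell by 2.11 (standard error 0.10, edgeR adjusted p = 2.4e-07). Both thrombospondins of this list, matricellular proteins that bind cells and growth factors, fell. THBS3 and THBS4, from a further list, rose with log2 fold changes of 1.02 and 3.12, from 2.14 and 0.423 CPM with DMSO. THBS1 had 284.9, 301.5 and 292.6 CPM with DMSO and 126.1, 128.3 and 133.8 CPM with NCD, giving a log2 fold change of -1.18 (standard error 0.06, edgeR adjusted p = 1.93e-07), and that of THBS2 was -1.19 (standard error 0.10, edgeR adjusted p = 5.83e-06).

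TGFBI, an adhesion protein induced by TGF-beta, remained one of the most abundant of the list. It had 298.1, 312.8 and 294.4 CPM with DMSO and 205.4, 203.1 and 213.1 CPM with NCD, giving a log2 fold change of -0.54 (standard error 0.05, edgeR adjusted p = 2.25e-05), without overlap and within the fold threshold. FN1, which encodes fibronectin, had a log2 fold change of -0.31 (standard error 0.08, edgeR adjusted p = 0.00666), from 174.0 ± 15.4 to 140.8 ± 8.55 CPM (SD, n = 3). FBLN1 (fibulin-1) had a log2 fold change of 0.00 with a standard error of 0.17 and edgeR adjusted p = 0.998. SPARC, a collagen-binding protein abundant in stroma, had only 6 to 18 counts per library and a log2 fold change of 0.16 (standard error 0.41, edgeR adjusted p = 0.744), with overlapping groups. VCAN, FBN2 and SPOCK1 had at most 7 counts in any library.

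Of the crosslinking and hydroxylating enzymes, 3 of 8 tested fell (37.5%, against 17.5% of all genes) and 0 rose (13.5% of all genes). Within each family a gene fell and the rest were not called, though PLOD1 and PLOD2 were both lower in every NCD library. PLOD2 (chromosome 3, 146069440 to 146163653, minus strand), the lysyl hydroxylase that acts on collagen telopeptides and so sets the stable type of crosslink, had 330.7, 378.9 and 325.9 CPM with DMSO and 19.9, 23.3 and 29.5 CPM with NCD. Its log2 fold change of -3.83 (standard error 0.14, edgeR adjusted p = 4.98e-08) was the lowest of the 40 genes tested. PLOD1, which hydroxylates the helix, had a log2 fold change of -0.57 (standard error 0.09, edgeR adjusted p = 0.000302). Counts of PLOD1 were 0.144 times those of PLOD2 with DMSO and 1.40 times with NCD, and the order of the 2 genes was inverted in all 3 NCD libraries. The log2 of this ratio moved by 3.28 (exact permutation p = 0.1).

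P4HA1, the main catalytic subunit of collagen prolyl 4-hydroxylase, had 198.4, 190.1 and 184.7 CPM with DMSO and 67.2, 59.1 and 71.2 CPM with NCD, and fell by 1.54 (standard error 0.08, edgeR adjusted p = 2.86e-07). Its paralogue P4HA2 had 53.2, 48.8 and 48.2 CPM with DMSO and 56.1, 51.0 and 51.2 CPM with NCD, with a log2 fold change of 0.08 (standard error 0.07, edgeR adjusted p = 0.387). P4HA1 counts were 3.81 times those of P4HA2 with DMSO and 1.25 times with NCD, without overlap of the groups (exact permutation p = 0.1).
PLOD2 and P4HA1 are textbook targets of hypoxia-inducible factors, whose core site is ACGTG or GCGTG, and their upstream sequence is shown because these 2 hydroxylases fell. LOX and P4HA2, also known as such targets, did not fall (log2 fold changes of 0.70 and 0.08), and their upstream sequence was not searched. Each is the 250 bases before the RefSeq start (GRCh38.p14, minus strand), PLOD2 at chr3:146161185-146161434 and P4HA1 at chr10:73096867-73097116, with the core motifs on either strand in capitals.
PLOD2: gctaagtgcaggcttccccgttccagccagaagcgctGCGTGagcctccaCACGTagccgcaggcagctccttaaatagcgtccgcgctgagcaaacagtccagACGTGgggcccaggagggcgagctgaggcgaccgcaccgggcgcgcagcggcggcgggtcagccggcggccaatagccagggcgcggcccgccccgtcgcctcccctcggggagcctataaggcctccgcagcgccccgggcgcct
P4HA1: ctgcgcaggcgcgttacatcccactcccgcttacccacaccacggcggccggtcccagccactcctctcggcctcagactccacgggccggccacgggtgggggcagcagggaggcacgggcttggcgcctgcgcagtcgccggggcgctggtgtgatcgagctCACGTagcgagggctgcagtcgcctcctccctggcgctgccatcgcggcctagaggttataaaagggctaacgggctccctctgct
PLOD2 has 2 matches to ACGTG and 1 to GCGTG, and P4HA1 has 1 to ACGTG. In windows of this length, 18.5% of all 35116 promoters hold ACGTG and 32.2% hold GCGTG. A match describes the letters only, and no binding was measured here.

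Of the lysyl oxidases, LOXL2 (chromosome 8, 23297189 to 23425328, minus strand) had 224.9, 238.0 and 217.5 CPM with DMSO and 56.4, 55.9 and 52.3 CPM with NCD, and fell by 2.05 (standard error 0.06, edgeR adjusted p = 2.65e-08). It overlaps ENTPD4 on its own strand, so that the counting may have split some reads between them. LOX itself was higher in every NCD library but within the fold threshold, with 115.2, 126.3 and 111.0 CPM with DMSO and 187.4, 186.0 and 199.1 CPM with NCD, giving a log2 fold change of 0.70 (standard error 0.07, edgeR adjusted p = 1.47e-05). Counts of LOX were 0.518 times those of LOXL2 with DMSO and 3.48 times with NCD (exact permutation p = 0.1), so that LOX had fewer counts than LOXL2 in every DMSO library and more in every NCD library. LOX, LOXL1 and P4HA2 overlap the expressed genes SRFBP1, LOXL1-AS1 and PDLIM4 on the opposite strand. LOXL4 had a log2 fold change of 0.89 (standard error 0.13, edgeR adjusted p = 0.000213) and LOXL1 one of 0.23 (standard error 0.20, edgeR adjusted p = 0.332).

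**Figure D4:**
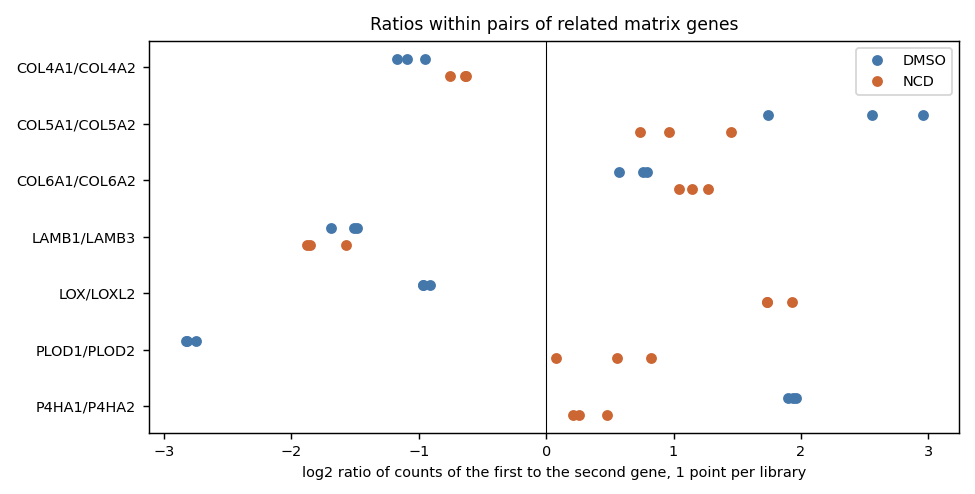
Log2 ratio of the counts of 2 related matrix genes (horizontal axis), 1 point per library, for the 7 pairs in which both genes could be tested. The groups do not overlap in 6 pairs. LOX/LOXL2 and PLOD1/PLOD2 cross 0, from means of -0.95 and -2.80 with DMSO to 1.80 and 0.49 with NCD.

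In 6 of these 7 pairs the NCD and DMSO libraries did not overlap. Taken singly, 37.2% of all genes lay above DMSO in every NCD library and 35.3% lay below. The share among other gene pairs was not computed, so the 6 are not read as particular to matrix genes. Adjusted over the 7 pairs, the exact permutation p was 0.117 for each of these 6, since the design cannot give less than 0.1 before adjustment. COL1A1/COL1A2 and COL4A5/COL4A6 were left out because COL1A2 and COL4A6 were too low.

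The fold changes of the matrix genes followed the length of the gene on the chromosome (its span, introns included). Spearman's rho between span and log2 fold change was -0.79 across the 40 genes, which share libraries and are not replicates, and -0.50 across 14692 genes with a span. The matrix genes tested are long, with a median span of 90.1 kb against 28.99 kb for all genes. Of 16 spanning over 100 kb, 14 fell and 0 rose, where 67.0% of all such genes fell. COL5A2 and P4HA2 were the 2 that were not called. The span of P4HA2 is 103.5 kb in GENCODE release 29 and 37.7 kb in RefSeq, since its outermost transcript starts far upstream, and that of COL5A2 is 193.4 kb and 409.2 kb. From 50 to 100 kb, 4 of 9 fell (15.3% of all genes), from 20 to 50 kb 2 of 11 fell and 1 rose (4.95% and 13.9% of all genes), and up to 20 kb 1 of 4 fell and 1 rose (4.91% and 21.0%).

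Set against all genes in 10 bins of span with equal numbers of genes, several lay outside the quartiles of their bin, as part of every bin does by definition. PLOD2, spanning 94.2 kb, had a log2 fold change of -3.83 where the median of its bin was -0.93 (quartiles -1.40 and -0.33). TNC, at 98.7 kb in the same bin, had -2.50. COL8A1, at 160.8 kb, had -3.42 where the bin median was -2.09 and the lower quartile -3.05. Among shorter members, THBS1 (18.4 kb) had -1.18 against a bin median of 0.43, AGRN (36.0 kb) had -1.27 against 0.11 and THBS2 (38.3 kb) had -1.19 against 0.11. On the other side, COL1A1 (18.3 kb) had 2.24 against 0.43, COL5A2 -0.72 against -2.09, and FBLN1 (98.9 kb) 0.00 against -0.93. LAMA3, the longest at 266.8 kb, had -1.57 against -2.09, which is within the quartiles of its bin (-3.05 and -1.24). In all, 25 of the 40 genes lay below the median of their bin and 15 above it. COL5A1 (-2.04), COL27A1 (-2.03) and FBN1 (-2.11) were close to the median of the longest bin, -2.09. The part that span plays in these results was not tested.

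**Figure D5:**
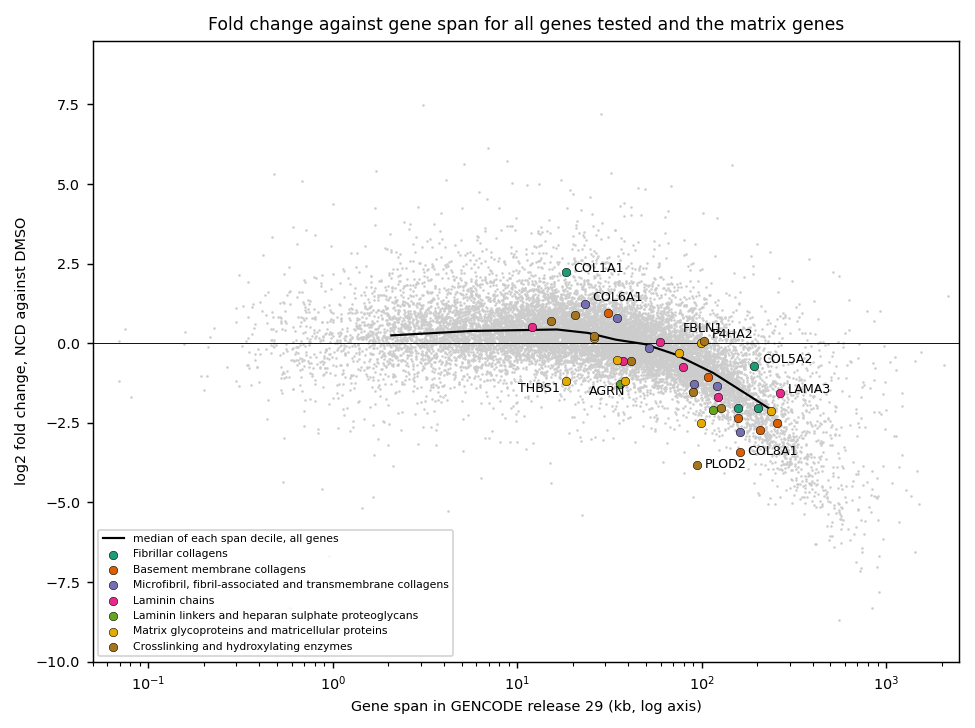
Log2 fold change with NCD (vertical axis) against gene span in kb (horizontal, log axis). Grey points are all genes tested with a span, the line joins the medians of the 10 span bins, and coloured points are the 40 matrix genes by role. Genes over 100 kb lie mostly below 0, and PLOD2, THBS1 and AGRN lie well below the line.

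Other genes of the matrix, from 6 further lists of 163 genes, went in both directions. Of the 92 that could be tested, 20 rose and 24 fell (21.7% and 26.1%, against 13.5% and 17.5% of all genes), with a median log2 fold change of -0.16. Among other collagen chains, 4 of 25 were tested: COL11A2 and COL9A2, cartilage collagens, rose with log2 fold changes of 2.54 and 1.51 from 0.195 and 2.03 CPM, and COL4A4 fell by 1.72. COL11A2 had 2 to 6 counts with DMSO, and without DMSO replicate 1 its log2 fold change was 3.27. No further laminin chain or netrin was called. Other matrix glycoproteins went both ways, with 11 rises and 11 falls among 34 tested (32.4% each, against 13.5% and 17.5% of all genes). EDIL3, an integrin ligand, fell by 3.53 on the log2 scale and LTBP1, which holds latent TGF-beta in the matrix, by 3.41. THBS4 (3.12) and FBLN7 (2.35) rose from 0.423 and 0.494 CPM with DMSO. Of 3 genes tested from the proteoglycan list, 1 rose, HAPLN3, with a log2 fold change of 1.49. It encodes a link protein and not a proteoglycan. The proteoglycan genes SRGN (-0.49) and ESM1 (-0.44) were not called.

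Of 30 genes tested that fold, secrete or process collagen, 5 rose and 4 fell, shares of 16.7% and 13.3% that are near those of all genes (13.5% and 17.5%), and the median log2 fold change was -0.15. SERPINH1, the collagen chaperone HSP47, had 166.7 CPM with DMSO and 223.5 with NCD, giving a log2 fold change of 0.42 (standard error 0.07, edgeR adjusted p = 0.000382). ADAMTS3, a procollagen N-proteinase, fell by 4.62 and P3H2, which hydroxylates prolines of collagen IV, by 2.34. ADAMTS3 had 56 to 95 counts with DMSO and only 2 to 4 with NCD. TLL2 and LOXL3 rose by 2.20 and 1.53 from 0.206 and 1.43 CPM, and LOXL3 overlaps the more abundant gene HTRA2 on the opposite strand. Of the receptors for collagen and laminin, 8 of 17 tested fell (47.1%, against 17.5% of all genes) and 1 rose (5.88%, against 13.5%). ITGA10 fell by 2.82 and DDR2 by 2.57, both collagen receptors, whereas BCAM, a receptor for laminin alpha 5, rose by 1.17. DDR2 had 0 to 8 counts with NCD, and without NCD replicate 3 its log2 fold change was -3.34.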

How the data were processed

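RNA-seq of MDA-MB-231 cells (3 libraries with DMSO, 3 with NCD) was analysed. The authors aligned reads with HiSat2 and deposited expected counts per Ensembl gene from RSEM, not normalized, each library on its own. The submitters' processing notes name GRCh38 and hg38. The annotation release and strand setting are not given in the sources used here. In each file 25 lines of stray text without a count were skipped. Symbols were found for 62666 of 63241 identifiers. Gene spans and exon lengths came from GENCODE release 29 (GRCh38), which holds at least 99.4% of each library's counts, and promoter sequence from RefSeq (GRCh38.p14), which has an entry for 40 of the 49 genes.

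Expected counts were rounded, filtered with filterByExpr and scaled by TMM (factors 0.912 to 1.09), and NCD was tested against DMSO in edgeR 4.0.16 (R 4.3.3) by glmQLFit and glmQLFTest. The standard error was taken as |log2 fold change| over the root of F. Levels per kb use the union of exons. Pair ratios used counts plus 0.5 and exact permutation tests (scipy 1.17.1). No 2 libraries of a group agreed within sampling noise (chi-square per degree of freedom at least 2.09). Counts were also simulated for this comparison with 200 genes changed (14977 genes tested), and read at adjusted p below 0.05 alone, without the fold threshold. By that rule 70% of changes of 1 on the log2 scale and 95.8% of changes of 2 were recovered, with 12 false calls. The calls above also use the fold threshold and took in 31.0% of all genes, so these rates do not carry over to them. Tables and figures used pandas 2.3.3, numpy 2.4.6 and matplotlib 3.10.9.

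The 49 genes and the other lists were chosen with earlier results of these data known. Full values are given for the 2 largest rises and falls called in each role group, both collagen IV pairs and the 3 genes most abundant per kb, and log2 fold changes or counts for the rest. Values per library for THBS1, COL7A1, LAMA5, P4HA2 and LOX were added after they were seen. Of the other lists, the 2 largest rises and falls called are named, with SERPINH1, and THBS3, SRGN and ESM1 were added after their values were seen. Another gene that the rule names is not reported here. Alternatives were DESeq2 1.42.0, limma-voom (limma 3.58.1), library totals, the low-count filter dropped or set to 10 counts per library, calls by adjusted p alone, a replicate block, a larger offset for ratios, another denominator for the summed share, and leaving out single libraries. Other experiments were not analysed here.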

Additional observations from a re-analysis of the deposited data

How the results depend on the processing

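The count of matrix genes that fell was 21, and 18 to 21 under every alternative that kept the fold threshold, the lowest with library totals. Without a fold threshold it was 26, with 7 higher, and 10602 of all genes were then called against 4736. Library totals in place of TMM moved the overall median log2 fold change from 0.04 to 0.23, made 56.2% of all calls higher against 43.6%, and gave 4 matrix genes that rose, COL7A1 (1.16) and LOXL4 (1.09) being added, while COL18A1 (-0.88), THBS1 (-0.98) and THBS2 (-0.99) were no longer past the fold threshold. DESeq2 called 22 of the 49 genes, with COL6A3 lost (adjusted p = 0.0568), and 23 with unadjusted P. Leaving out each library gave 4653 to 5049 genes, 22 to 24 matrix genes, 20 to 21 of them lower and 2 to 3 higher. COL7A1 passed both thresholds without DMSO replicate 2 (1.06) and without NCD replicate 1 (1.00). COL6A3 ranged from -1.72 to -1.10. As a share of nuclear protein-coding counts, by construction a smaller denominator, the matrix sum was 0.386% with DMSO and 0.221% with NCD. Without each library the shares of all counts ranged from 0.338% to 0.362% and from 0.201% to 0.207%.

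4 genes near 0 changed sign, none past the threshold: COL16A1 to 0.039 with library totals, FBLN1 to 0.196 with library totals, 0.004 with limma-voom and 0.003 without the low-count filter, and, without each library, FBLN1 between -0.165 and 0.077, LAMA5 between -0.031 and 0.095 and SPARC between -0.16 and 0.37. The cause was not tested. Same-numbered libraries were not treated as pairs, and the labels do not say whether they were prepared together. Their deviations from the group means had correlations of 0.216, -0.185 and 0.0226, too few values to settle it. With the replicate block 4723 genes were called, 22 of the 49 genes among them, 20 lower and 2 higher, and COL1A1 had 2.25. No pair ratio changed direction with an offset of 5 or without each library. At this depth the 9 genes below the filter, with at most 11 counts in a library, could not be measured.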
